A study of Homo sapiens with 36 samples.

Results

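The cluster of MIR424, MIR503, MIR542 and the MIR450 genes is a run of miRNA hairpins on the X chromosome, and 7 of its mature products were followed across 36 small RNA libraries. They were hsa-miR-424-5p, hsa-miR-424-3p, hsa-miR-503-5p, hsa-miR-542-3p, hsa-miR-542-5p, hsa-miR-450a-5p and hsa-miR-450b-5p, out of 1508 listed miRNAs. Of these, 4 were chosen by measured values of the same libraries. miR-542-3p, miR-424-5p and the 5p products of both MIR450 families were called higher in PMD-Sen D16 than in Ctrl and at no other time point, and miR-424-3p, miR-503-5p and miR-542-5p were added as products of the same hairpin run. PMD-Sen D16 is therefore given below as a description with no test. The libraries came from WI-38, a line of diploid fibroblasts derived from human lung that stops dividing after a limited number of passages. Ctrl cells were young and proliferating. PMD-Sen cells had been exposed to SDS, which injures the plasma membrane, and DDR-Sen cells to doxorubicin (DXR), a drug that damages DNA. Both were collected when the treatment ended (D0) and on 7 later days up to D16 (D1, D2, D3, D4, D6 and D8 between). RS cells were untreated and had reached replicative senescence by repeated division. Each of the 18 conditions had 2 replicates, labelled as biological, of this one cell strain.

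The members of a cluster of this kind are cut from a shared primary transcript. Drosha releases each hairpin, Dicer cuts the loop, and 1 strand of the duplex is loaded into an Argonaute protein, where bases 2 to 8 of the miRNA, the seed, pair with target mRNAs. The 5p and 3p arms of a hairpin start out in equal amounts, and their mature levels then depend on strand loading and decay. miR-424 and miR-503 are known as members of the extended miR-15/16 family, whose targets include cyclins and other cell cycle genes, and are associated with cell cycle arrest and differentiation. miR-542-3p has been described as a repressor of BIRC5, the gene of the survival protein survivin.

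In GRCh38 the 6 hairpins span 6527 bases on the minus strand, from chrX:134540185 to chrX:134546711. MIR424 (chrX:134546614-134546711) comes first in the direction of transcription and MIR503 (chrX:134546328-134546398) follows 215 bases later. MIR542 (chrX:134541341-134541437) lies 4890 bases beyond MIR503. MIR450A2 (chrX:134540508-134540607), MIR450A1 (chrX:134540341-134540431) and MIR450B (chrX:134540185-134540262) come last. The annotated host gene of the first hairpins is the long non-coding RNA MIR503HG (chrX:134543119-134546642). The MIR424 hairpin reaches across its annotated start, MIR503 lies in an intron of 3 of its 10 annotated transcripts and overlaps the edge of another, and the other 4 hairpins lie outside it. miR-450a-5p has the same sequence in MIR450A1 and MIR450A2, so its level is the sum over both.

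The mature sequences of 6 of the 7 members were matched by name in RefSeq (GRCh38.p14). They are shown 5′ to 3′ because the members differ in what they can pair with although they come from one run of hairpins. The seed, bases 2 to 8, is in capitals.
hsa-miR-424-5p: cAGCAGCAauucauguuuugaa
hsa-miR-503-5p: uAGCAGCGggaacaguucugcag
hsa-miR-424-3p: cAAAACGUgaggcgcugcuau
hsa-miR-542-5p: uCGGGGAUcaucaugucacgaga
hsa-miR-450a-5p: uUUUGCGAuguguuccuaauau
hsa-miR-450b-5p: uUUUGCAAuauguuccugaaua

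The seed of miR-424-5p is AGCAGCA, which 7 of 2370 mature human miRNAs in that table carried. The others were miR-15a-5p, miR-15b-5p, miR-16-5p, miR-195-5p, miR-497-5p and miR-6838-5p, all encoded outside the cluster. The seed of miR-503-5p differed from that of miR-424-5p by A8G, counted from 1 at the 5′ end of the miRNA with the base of miR-424-5p first. miR-450a-5p and miR-450b-5p had the same base at 16 of 22 positions and differed within the seed by G7A, with the base of miR-450a-5p first. The seeds of miR-424-3p, miR-503-5p, miR-542-5p, miR-450a-5p and miR-450b-5p were each carried by 1 mature miRNA in the table. The cluster thus held 1 member of a seed family with several genes and members with seeds of their own.

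The MIR424 hairpin gives both arms studied here. In the hairpin sequence below (RefSeq, GRCh38.p14, minus strand, 5′ to 3′), the first stretch in capitals is miR-424-5p at positions 11 to 32 and the second is miR-424-3p at positions 48 to 68.
MIR424: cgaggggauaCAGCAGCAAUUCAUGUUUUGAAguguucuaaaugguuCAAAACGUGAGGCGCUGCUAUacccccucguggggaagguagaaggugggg

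Library totals ranged from 81670 to 1933442 counts with a median of 376989.5, and 360 miRNAs passed the filter on low counts. The replicates of PMD-Sen D16 had 1933442 and 440285 counts. The fibroblast markers miR-143-3p, miR-145-5p, miR-199a-5p and miR-214-3p had counts in every library and summed to 6396 to 23706 CPM. The epithelial list (miR-200c-3p, miR-141-3p, miR-200b-3p and miR-205-5p) summed to 14.6 to 163 CPM. In it miR-141-3p was at 0 in 34 libraries and miR-205-5p at 0 in 33. By contrast, miR-200c-3p had 3 to 38 counts in every library, and miR-200b-3p was at 0 in only 1. The blood list summed to 0 to 12.6 CPM over the 3 markers analysed. Of these, miR-223-3p was at 0 in 32 libraries, miR-142-5p in 34 and miR-451a in 19. In such bulk libraries a lower level in all cells and fewer cells with the miRNA cannot be told apart.

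Of the 7 members, 6 passed the filter and miR-542-5p did not. miR-542-5p had 0 to 18 counts per library and 92 in all, with 28 libraries at 3 counts or fewer and 8 of them at 0, so only its counts are described. Together the 7 members took 0.254% to 0.581% of a library. Levels are given below in CPM, counts relative to the library total after scaling by TMM, a normalization that sets the bulk of the miRNAs equal between libraries. The 6 members with a sequence were 21 to 23 bases long. CPM values of different miRNAs are compared without a correction for length or sequence, so an order by level is an order by reads.

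miR-503-5p was the most abundant product, with a median level of 1777 CPM (1167 to 2858 over the libraries). miR-424-3p followed with a median of 1189 CPM (797 to 2569), and miR-424-5p from the same hairpin had 245 CPM (110 to 578). The members from the far hairpins had lower medians. miR-450b-5p had a median of 155 CPM (37.7 to 276), miR-542-3p of 114 CPM (0 to 461), miR-450a-5p of 68.0 CPM (31.4 to 249) and miR-542-5p of 3.60 CPM (0 to 33.4). Within a library this order held for miR-503-5p above miR-424-3p in 34 of 36 libraries and for miR-424-3p above miR-424-5p in 36. miR-450b-5p lay above miR-542-3p in only 26 of 36, so these neighbours in the order were not separated. By median share of the cluster counts, miR-503-5p made up 50.0% and miR-424-3p 33.8%, against 6.64% for miR-424-5p, 4.58% for miR-450b-5p, 3.27% for miR-542-3p, 1.97% for miR-450a-5p and 0.113% for miR-542-5p.

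**Figure D1:**
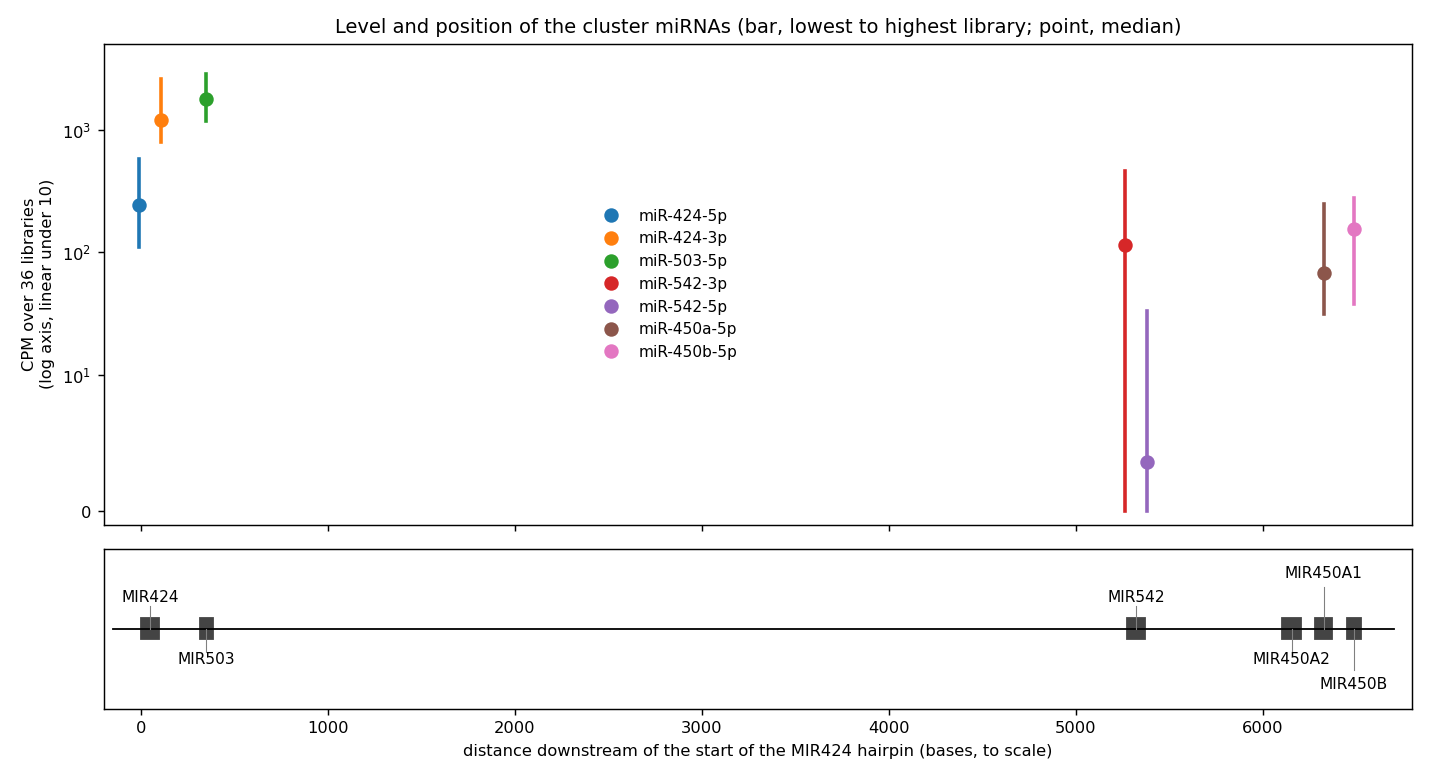
Level of each cluster miRNA over 36 libraries (upper panel, CPM on a log axis that is linear under 10; bar, lowest to highest library; point, median) above the position of its hairpin (lower panel, bases downstream of the start of MIR424, to scale). The 2 arms of MIR424 and of MIR542 are drawn side by side around their hairpin, and miR-450a-5p is drawn at MIR450A1 although MIR450A2 gives it too. miR-424-3p and miR-503-5p, at the start of the run, have medians of 1189 and 1777 CPM. miR-424-5p, from the first hairpin too, has 245 CPM, and each member from the far hairpins has at most 155 CPM. miR-503-3p, the other arm of MIR503, is not drawn and has a median of 2.61 CPM.

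The summed level of the cluster was 3922 and 4096 CPM in the Ctrl libraries. It was lowest in DDR-Sen D6, at 2776 and 2848 CPM. In PMD-Sen D0 it was 4073 and 5570 CPM, and in PMD-Sen D16 it was 4398 and 5506 CPM. Since miR-503-5p and miR-424-3p supply most of this sum, it follows them rather than the 4 members that were chosen by their rise.

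At PMD-Sen D16, the time point that chose the members, miR-542-3p had 405 and 160 CPM (745 and 73 counts), against 85.8 and 106 CPM in Ctrl. miR-424-5p had 578 and 288 CPM against 215 and 211 CPM. miR-450a-5p had 209 and 123 CPM against 85.8 and 65.7 CPM. miR-450b-5p had 261 and 224 CPM against 103 and 137 CPM. In all 4 the PMD-Sen D16 libraries lay above the Ctrl libraries, which the choice of members had fixed, and for miR-542-3p, miR-424-5p and miR-450a-5p replicate 1 was the higher library by a wide margin. The fitted log2 fold changes were 1.58 for miR-542-3p, 1.17 for miR-450a-5p, 1.04 for miR-424-5p and 1.00 for miR-450b-5p. The threshold was a log2 fold change of 1, so miR-450b-5p lay just inside it, and no member lay just outside. The nearest below it was miR-503-5p at 0.34, and miR-424-3p had -0.26. In that comparison 16.9% of the tested miRNAs were called and 4 of the 6 tested members, a count that the choice fixes. Without replicate 1 of PMD-Sen D16 the values were 0.73 for miR-542-3p, 0.71 for miR-450a-5p and 0.44 for miR-424-5p. Against DDR-Sen D16 the PMD-Sen D16 values were all positive, from 0.11 for miR-450b-5p to 0.84 for miR-542-3p.

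**Figure D2:**
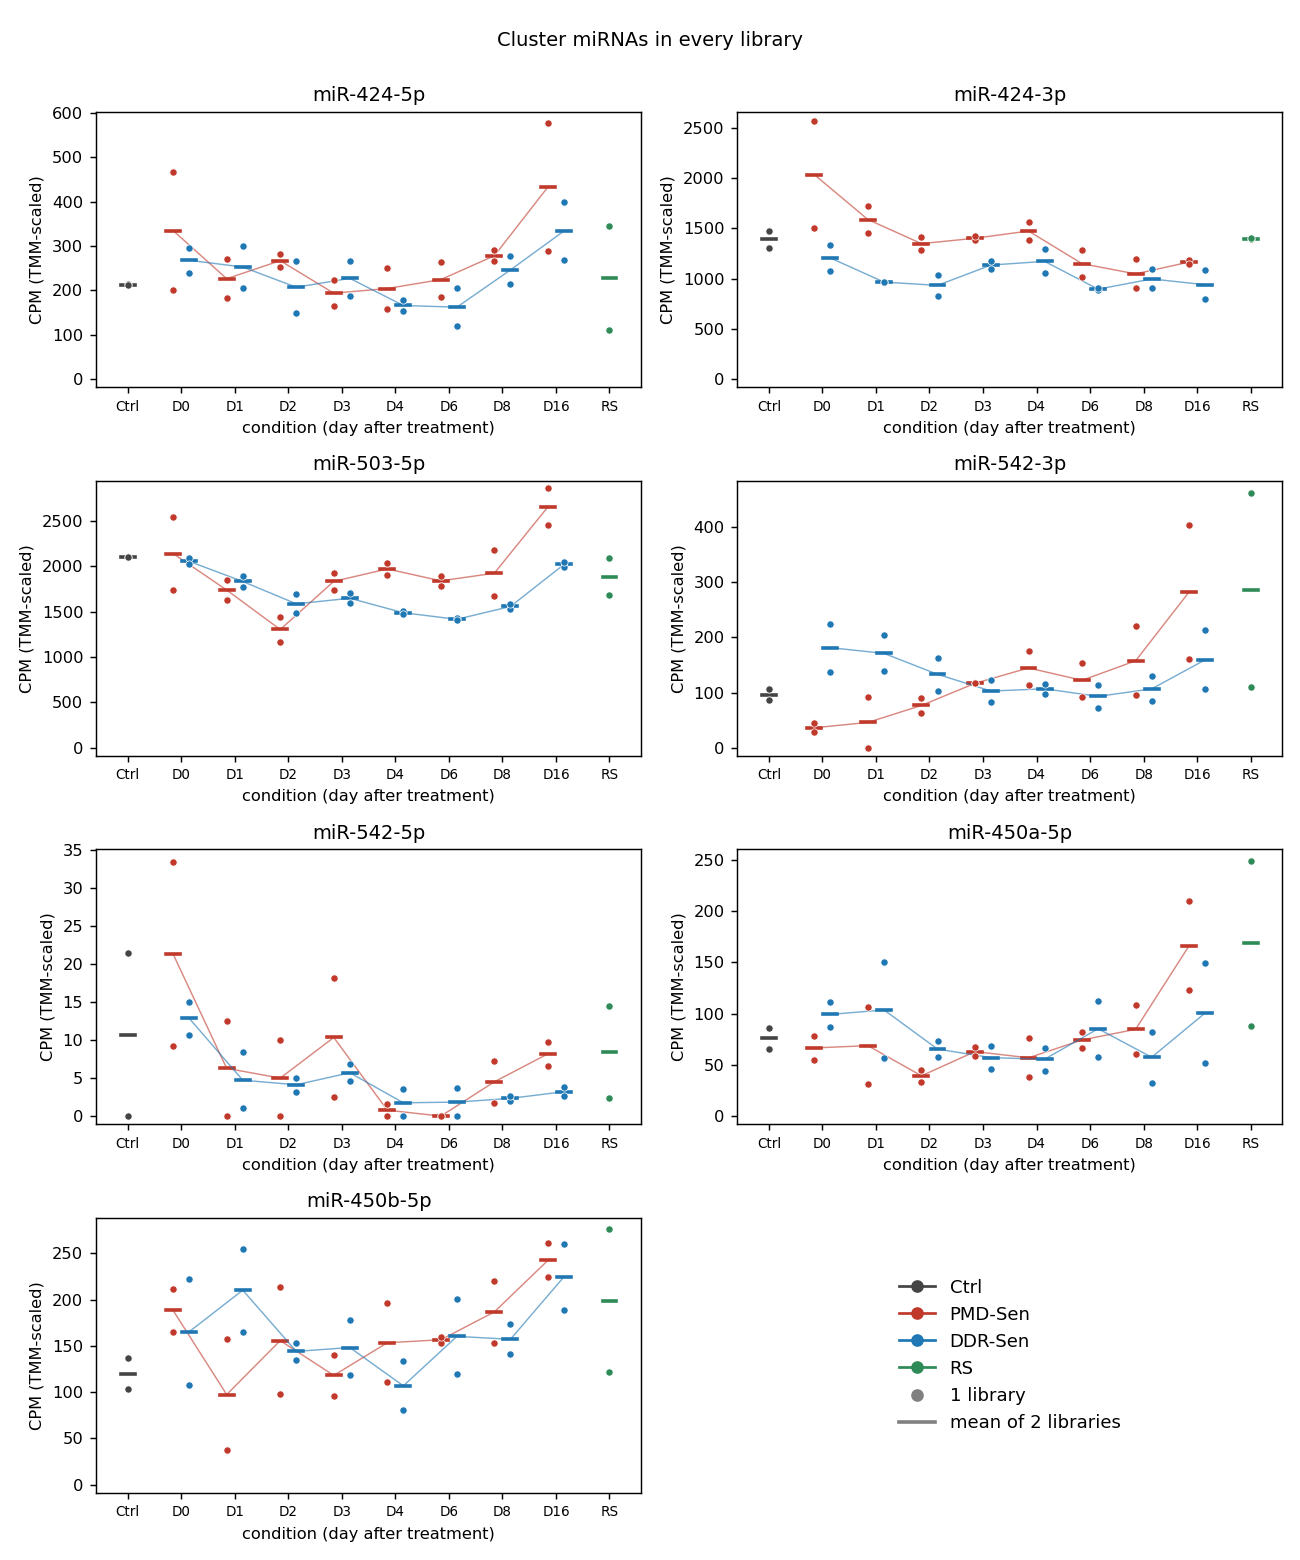
Level of the 7 cluster miRNAs in every library (CPM, linear axis from 0; point, 1 library; dash, mean of 2 replicates; thin line, series over the days D0 to D16). miR-542-3p starts at 27.5 and 44.5 CPM in PMD-Sen D0 and at 225 and 138 CPM in DDR-Sen D0, and the 2 RS libraries lie far apart for miR-542-3p, miR-450a-5p and miR-450b-5p.

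The other time points were compared with Ctrl to follow each member through the response, with edgeR's quasi-likelihood test. A call needed what the study used, a p below 0.05 without adjustment together with a log2 fold change beyond 1 in either direction. No tested member passed at any of the other 15 time points, a result the choice of members fixes for the 4 chosen ones and for them only. The share of all tested miRNAs called in PMD-Sen was 5.28% at D0, 7.22% at D1, 6.39% at D2, 2.78% at D3, 6.39% at D4, 9.17% at D6 and 13.3% at D8. In DDR-Sen it was 3.89% at D0, 6.94% at D1, 6.94% at D2, 5.83% at D3, 9.17% at D4, 11.7% at D6, 12.8% at D8 and 21.4% at D16. In the same edgeR tests an unadjusted p below 0.05 alone was reached in 11 of the 90 member tests. Of these, 10 had a lower level than Ctrl. Over all miRNAs 994 of 5400 tests (18.4%) reached it, 522 with a higher and 472 with a lower level. The 4 chosen members gave none of the 11, but their choice asked for no call at these time points. The count over the 90 tests is therefore not independent of that choice. DESeq2's Wald test, run without the filter, made 1 call, of miR-542-5p in PMD-Sen D6, where both libraries had 0 counts and Ctrl had 5 and 0. Leaving out a replicate left 1 library in its condition. Without PMD-Sen D1 replicate 1, the log2 fold changes at PMD-Sen D1 were -1.68 for miR-450b-5p and -8.41 for miR-542-3p. The library left had 150594 counts in all, with 6 of miR-450b-5p and 0 of miR-542-3p, so -8.41 is no bound. Without PMD-Sen D0 replicate 1, miR-424-5p was at 1.13 in PMD-Sen D0. Without DDR-Sen D16 replicate 1, miR-450b-5p was at 1.15 in DDR-Sen D16.

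The 11 tests below an unadjusted p of 0.05 all concerned the abundant members miR-503-5p and miR-424-3p, neither of them chosen by measured values. miR-503-5p was below Ctrl at 14 of the 15 time points, with log2 fold changes from -0.69 to 0.03. Its level was 2107 and 2096 CPM in Ctrl and 1438 and 1167 CPM in PMD-Sen D2, a log2 fold change of -0.69 with an adjusted p of 0.0423 in edgeR. In DDR-Sen D6 it was 1426 and 1404 CPM, a log2 fold change of -0.57 with an adjusted p of 0.0434. In both conditions the libraries lay below both Ctrl libraries, and these were the 2 of the 90 member tests with an adjusted p below 0.05, against 5.5% of all 5400 tests. miR-424-3p was below Ctrl at 11 of the 15 time points, with log2 fold changes from -0.64 to 0.55, and none had an adjusted p below 0.05.

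RS cells were compared with Ctrl as a form of senescence reached without SDS or DXR. miR-542-3p had 110 CPM (46 counts) in RS replicate 1 and 461 CPM (287 counts) in replicate 2, against 85.8 and 106 CPM in Ctrl. miR-450a-5p had 88.1 and 249 CPM against 85.8 and 65.7 CPM, and miR-450b-5p 121 and 276 CPM against 103 and 137 CPM. For the first 2, both RS libraries lay above Ctrl, but replicate 1 lay close to it. RS was compared with the same 2 Ctrl libraries that the choice of members used, so values of the 4 chosen members in RS are not independent of that choice. By the thresholds of the study 2 of the 6 tested members were called, beside 22.2% of all tested miRNAs. The log2 fold changes were 1.58 (SE 0.61) for miR-542-3p and 1.19 (SE 0.56) for miR-450a-5p, with adjusted p of 0.0576 and 0.124 in edgeR. By adjusted p no member was called, beside 22.5% of all tested miRNAs, while 2 members had an unadjusted p below 0.05 and DESeq2 called 1. Without RS replicate 2 the log2 fold changes were 0.04 for miR-542-3p and 0.10 for miR-450a-5p, and neither was called. Without Ctrl replicate 1 they were 1.45 and 1.38 and neither was called, and without Ctrl replicate 2 they were 1.75 and 0.99 and miR-542-3p alone was called. The calls over all miRNAs were 32 higher and 48 lower, and with total counts, which moved the median of all miRNAs from 0.12 to 0.01, they were 19 and 52.

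miR-450b-5p had a log2 fold change of 0.73 (SE 0.47) in RS, or -0.14 without RS replicate 2. Differences between members in RS were not tested. miR-424-3p had 1394 and 1403 CPM in RS against 1304 and 1479 CPM in Ctrl, a log2 fold change of 0.01 (SE 0.22). miR-503-5p had 1684 and 2086 CPM against 2107 and 2096 CPM, a log2 fold change of -0.16 (SE 0.18). miR-424-5p had 110 and 346 CPM against 215 and 211 CPM, so 1 RS library lay below both Ctrl libraries and the other above both, and its log2 fold change was 0.12 (SE 0.43). Without RS replicate 2 that value was -1.09.

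Change along each series was then tested without any Ctrl or D16 library, as the mean of the late time points D6 and D8 against that of the early time points D0 and D1. The choice of members also used these time points, through the lack of a call there. Values of the chosen members here are therefore not independent of that choice. In PMD-Sen, 2 of the 6 tested members were called by an adjusted p below 0.05, in opposite directions, beside 22.8% of all tested miRNAs. miR-542-3p rose and miR-424-3p fell. The median of the 6 log2 fold changes was 0.08, and that of all tested miRNAs was -0.07.

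miR-542-3p had 3 and 4 counts in the PMD-Sen D0 libraries and 25 and 0 counts in those of D1, that is 27.5, 44.5, 91.4 and 0 CPM. At D6 it had 153 and 91.1 CPM and at D8 220 and 94.9 CPM. The highest early library and the lowest late library were nearly level, at 91.4 and 91.1 CPM, and the other early libraries lay below every late one. The log2 fold change was 1.69 (SE 0.56) with an adjusted p of 0.0285 in edgeR. Pooled over 4 libraries each, the early counts were 32 of 613507, or 52.2 CPM with an exact 95% Poisson interval of 35.7 to 73.6. The late counts were 282 of 1733604, or 163 CPM (144 to 183), and both intervals cover counting error only. In PMD-Sen D1 replicate 2, with 0 counts of 150594, a level of up to 18.8 CPM was allowed. The early PMD-Sen libraries were also the shallow ones, with 81670 to 276807 counts against 325894 to 557527 in the late ones, and depth moved with the stage. With every library thinned to 81670 counts the log2 fold change was 1.55 with an adjusted p of 0.0823. Leaving out each library in turn gave 1.30 to 5.47, the upper value where D1 kept only its library at 0 counts and is no bound, and 3 of the 8 fits kept the call. The call was lost without either PMD-Sen D0 library, without PMD-Sen D1 replicate 2, without PMD-Sen D6 replicate 1 and without PMD-Sen D8 replicate 1.

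miR-424-3p went the other way. It had 2569 and 1502 CPM at PMD-Sen D0 and 1451 and 1726 CPM at D1, against 1015 and 1284 CPM at D6 and 1192 and 903 CPM at D8. Every early library lay above every late one. The log2 fold change was -0.71 (SE 0.16) with an adjusted p of 0.00149 in edgeR, and the call was made in all 8 fits that left out 1 library, with values from -0.88 to -0.49. With no filter on low counts it was -0.54 with an adjusted p of 0.0939, and the call was lost. miR-424-5p, the other arm of that hairpin, had a log2 fold change of -0.14 (SE 0.32) in the same comparison. miR-503-5p had -0.04 (SE 0.13), miR-450a-5p 0.20 (SE 0.46) and miR-450b-5p 0.29 (SE 0.35), and none of the 3 was called.

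In DDR-Sen all 6 tested members had lower means in the late libraries, with log2 fold changes from -0.81 to -0.19 and a median of -0.39. Over all tested miRNAs the median was 0.06, and 54.7% had a positive value. The members share the same libraries, so their directions are not independent. One member was called, miR-503-5p, beside 23.1% of all tested miRNAs. miR-503-5p had 2087 and 2020 CPM at D0 and 1895 and 1768 CPM at D1, and it fell to 1426 and 1404 CPM at D6 and 1526 and 1586 CPM at D8. No late library reached the lowest early one. The log2 fold change was -0.39 (SE 0.13) with an adjusted p of 0.0292 in edgeR. It stayed between -0.42 and -0.34 when single libraries were left out, but the adjusted p was above 0.05 in each of the 8 fits, from 0.0535 to 0.137. With no filter the adjusted p was 0.108. miR-542-3p had 225, 138, 204 and 138 CPM in the early and 71.5, 114, 129 and 84.0 CPM in the late DDR-Sen libraries, which did not overlap. Its log2 fold change was -0.81 (SE 0.42) with an adjusted p of 0.174, and -0.93 with an adjusted p of 0.0240 with no filter.

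At DDR-Sen D16 miR-503-5p had 1993 and 2046 CPM, within the range of its early libraries. miR-542-3p had 106 and 213 CPM, so 1 library lay within its late range and the other within its early range. miR-424-3p had 1082 and 797 CPM, a log2 fold change of -0.20 against the early libraries beside -0.19 for the late ones. Against the early DDR-Sen libraries the 6 log2 fold changes ran from -0.20 to 0.36, 3 of them positive. No member was called in edgeR or DESeq2, and 0 had an unadjusted p below 0.05, beside 20.3% of all tested miRNAs called. Against Ctrl, miR-424-5p, miR-450b-5p, miR-450a-5p and miR-542-3p had log2 fold changes of 0.65, 0.89, 0.45 and 0.74 at DDR-Sen D16, each positive and each short of the thresholds. The difference between these values and those of PMD-Sen D16 was not tested, since PMD-Sen D16 chose the members.

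The late-minus-early changes of the 2 series were compared directly. For the chosen members, miR-542-3p among them, these changes are not independent of the choice, which used the same time points. For miR-542-3p the PMD-Sen change exceeded the DDR-Sen change by 2.50 on the log2 scale (SE 0.70), with an adjusted p of 0.0182 in edgeR. This was the 1 member called of 6, beside 12.5% of all tested miRNAs. The 2 series differed most at the start. At D0 miR-542-3p had 27.5 and 44.5 CPM in PMD-Sen and 225 and 138 CPM in DDR-Sen, with no overlap, and at D8 it had 220 and 94.9 CPM in PMD-Sen and 129 and 84.0 CPM in DDR-Sen, which overlapped. Leaving out single libraries gave differences from 2.11 to 6.28, the upper value again with D1 reduced to its library at 0 counts, and 13 of the 16 fits kept the call. It was lost without PMD-Sen D0 replicate 1, without PMD-Sen D6 replicate 1 and without PMD-Sen D8 replicate 1. In thinned libraries the difference was 2.40 with an adjusted p of 0.0676. For miR-424-3p the difference was -0.52 (SE 0.22) with an unadjusted p of 0.0251 and an adjusted p of 0.127, and the other 4 differences were 0.26 to 0.72.

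**Figure D3:**
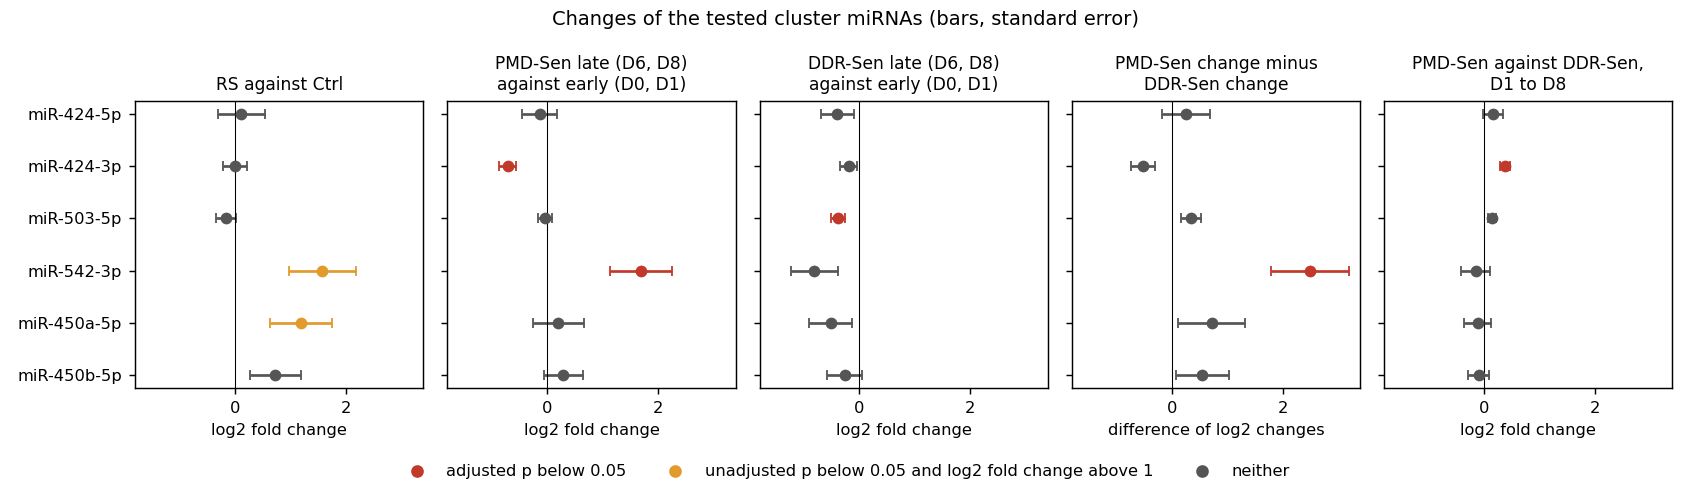
Log2 fold changes of the 6 tested cluster miRNAs in 5 comparisons (points; bars, standard error of the edgeR fit; red, adjusted p below 0.05; orange, thresholds of the study only). miR-542-3p is at 1.69 in PMD-Sen and -0.81 in DDR-Sen late against early, and miR-424-3p is called at -0.71 in PMD-Sen late against early and at 0.39 between the series.

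Over D1 to D8 the mean levels of the series were compared with the days weighted equally. One of the 6 tested members was called, miR-424-3p, beside 21.4% of all tested miRNAs. Its level was higher in PMD-Sen, with a log2 fold change of 0.39 (SE 0.09) and an adjusted p of 0.00198 in edgeR, and the call was made in all 24 fits that left out 1 library. At D1 it had 1451 and 1726 CPM in PMD-Sen and 964 and 968 CPM in DDR-Sen, and at D3 1383 and 1422 CPM against 1100 and 1171 CPM, both without overlap. At D8 the pairs overlapped, with 1192 and 903 CPM against 902 and 1092 CPM. The other 5 members had log2 fold changes from -0.15 to 0.16. miR-503-5p, at 0.15 with an adjusted p of 0.191, was called too with total counts in place of TMM (0.35), with a filter at a mean of 10 counts (0.19), with DESeq2 (0.20) and in thinned libraries with the filter recomputed (0.27). Total counts moved the median of all tested miRNAs from 0.02 to 0.22 and the calls from 31 higher and 46 lower to 85 higher and 24 lower, while DESeq2 size factors gave 34 of each. miR-424-3p had 0.59 with total counts, above that median.

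The 2 arms of MIR424 were set against each other within each library, a ratio that needs no scaling between libraries. The 3p arm was the more abundant in all 36 libraries. The log2 ratio of 5p over 3p counts, with 0.5 added to each, ran from -3.65 to -1.0 with a median of -2.33. In Ctrl it was -2.59 and -2.80 and in RS -3.65 and -2.02. In PMD-Sen the mean was -2.74 over the 4 early libraries, -2.13 over the 4 late ones and -1.51 at D16, where the replicates had -1.04 and -1.99. In DDR-Sen it was -2.06, -2.26 and -1.50, with -2.0 and -1.0 at D16. The D16 replicates of each series were about 1 apart. miR-424-5p was chosen for a high level at PMD-Sen D16, so the ratio there is a description only. Over all 8 days PMD-Sen was below DDR-Sen on 6, with a mean difference of -0.23. The test left out D16. Over the 7 days D0 to D8 PMD-Sen was below DDR-Sen on 5, and the mean difference was -0.26 (SD 0.38 over the days). An exact two-sided sign-flip permutation test over these days gave p = 0.172, where the smallest possible was 0.015625, and 0.344 after adjustment over both arm tests.

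For MIR542 the 3p arm was the more abundant in most libraries, with a median log2 ratio of 3p over 5p of 4.75 and a range from -2.32 to 7.37. The ratio rests on the few counts of miR-542-5p. At PMD-Sen D0 it was 1.22 and 0.36 and at PMD-Sen D1 5.67 and -2.32, whereas the late PMD-Sen libraries had 3.50 to 7.37. The early DDR-Sen libraries had 3.08 to 7.00. The mean difference over all 8 days was -0.61. Over the 7 days without D16 it was -0.66 (SD 1.97), 3 days were negative and 4 positive, and the exact permutation test gave p = 0.438, also after adjustment.

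**Figure D4:**
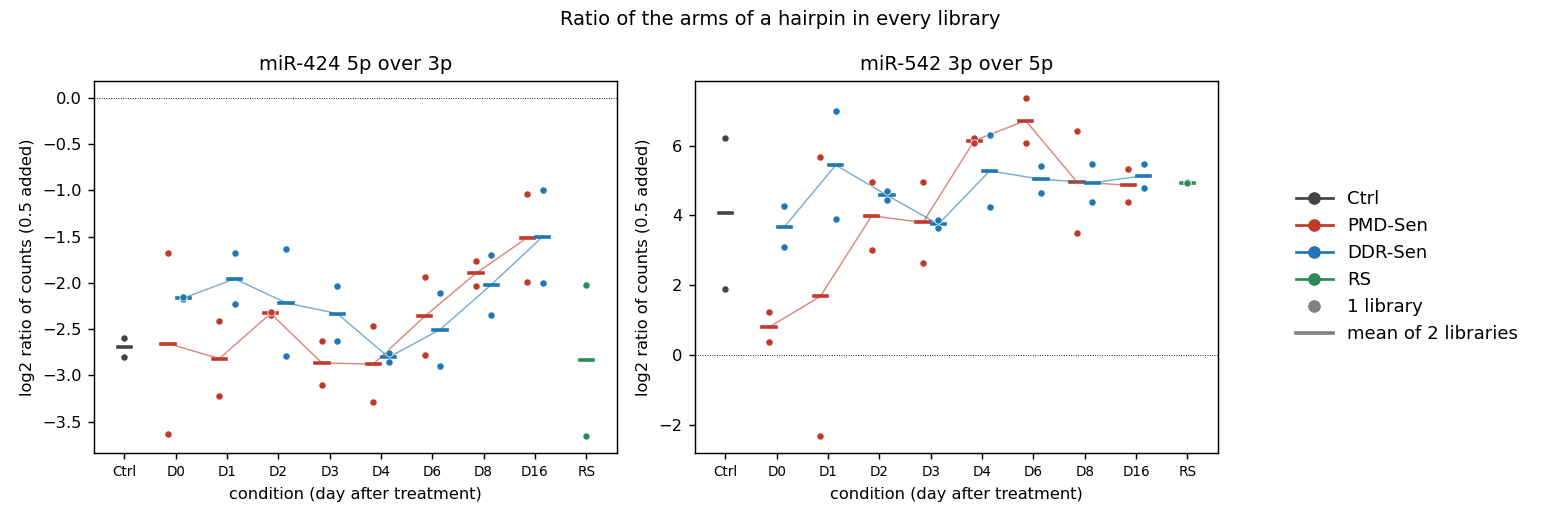
Log2 ratio of the arms of MIR424 (5p over 3p) and MIR542 (3p over 5p) in every library (counts with 0.5 added; point, 1 library; dash, mean of 2 replicates; thin line, series over the days; dotted line, equal arms). For MIR424 all 36 points lie below 0 and the D16 means are -1.51 in PMD-Sen and -1.50 in DDR-Sen; for MIR542 the lowest points are those of PMD-Sen D0 and of PMD-Sen D1 replicate 2.

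Whether the members moved together was described by the correlation of their log2 CPM over the 18 condition means. The points share libraries, depth and scaling, and PMD-Sen D16, which chose 4 of the members, is one of them. The 15 pairs of tested members had a median Pearson r of 0.34 (-0.51 to 0.67), and all 64620 pairs of tested miRNAs had a median of 0.00, of which 18.6% reached the members' median. The pairs were also summarised by whether they held miR-424-3p, and the 2 ranges overlapped. The 10 pairs without miR-424-3p had a median r of 0.59, from 0.14 for miR-424-5p with miR-542-3p to 0.67 for miR-503-5p with miR-450a-5p. The 5 pairs with miR-424-3p ran from -0.51 with miR-542-3p to 0.27 with miR-503-5p. This split was made after the values of miR-424-3p were seen. Without the D16 conditions and RS, over 15 conditions, the median was 0.33 over the 15 member pairs and 0.37 over the 10 without miR-424-3p. Of all 64620 pairs, 19.5% reached the first value and 16.7% the second. The 5 pairs with miR-424-3p then ran from -0.62 with miR-542-3p to 0.45 with miR-503-5p. The 10 others ran from -0.13 to 0.55, so the ranges overlapped widely.

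Among 359 other tested miRNAs, miR-450b-5p ranked 2nd and miR-503-5p 3rd in likeness to miR-424-5p over the condition means, which include PMD-Sen D16. miR-450a-5p ranked 36th, miR-542-3p 98th and miR-424-3p, from the same hairpin, 135th. For miR-503-5p, miR-450a-5p ranked 1st, miR-424-5p 5th, miR-450b-5p 21st, miR-542-3p 51st and miR-424-3p 62nd. For miR-542-3p, miR-450b-5p ranked 25th, miR-450a-5p 38th, miR-503-5p 106th, miR-424-5p 149th and miR-424-3p 318th. Without D16 and RS, r fell from 0.67 to 0.55 for miR-503-5p with miR-450a-5p. For miR-424-5p it fell from 0.61 to 0.39 with miR-503-5p and from 0.63 to 0.48 with miR-450b-5p. Ranks without these conditions are not given. The 5 miRNAs outside the cluster most like the members' mean profile, of 354, were miR-411-5p (r = 0.74), miR-379-5p (0.73), miR-27b-3p (0.68), miR-345-5p (0.67) and miR-218-5p (0.66), over 18 condition means. Without D16 and RS these r were 0.54, 0.59, 0.30, 0.53 and 0.57 over 15 conditions.

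The differences between replicates of 1 condition were also compared between members. Over the 18 differences of replicate 1 minus replicate 2, miR-542-3p and miR-450a-5p had r = 0.79, miR-542-3p and miR-450b-5p 0.68, and miR-424-5p and miR-450a-5p 0.63. miR-424-3p and miR-424-5p had -0.48. miR-503-5p had r between -0.06 and 0.12 with the 4 chosen members and 0.48 with miR-424-3p. All 15 pairs had a median of 0.12, which 37.8% of all pairs of tested miRNAs reached. Without PMD-Sen D16 and RS, over 16 conditions, that median was 0.03, which 47.9% of all pairs reached. The r of miR-542-3p with miR-450a-5p was then 0.72, and miR-503-5p had -0.48 to -0.20 with the 4 chosen members. The replicate differences of miR-542-3p and miR-450a-5p went with depth. The r with the log2 ratio of the replicate totals was 0.63 for miR-542-3p and 0.67 for miR-450a-5p, against a median of 0.00 over all tested miRNAs and -0.03 for miR-424-3p. It was 0.51 for miR-424-5p, 0.38 for miR-503-5p and 0.29 for miR-450b-5p. The deeper replicate of PMD-Sen D16, of PMD-Sen D1 and of RS was also the one with the higher level of miR-542-3p, miR-450a-5p and miR-450b-5p, whereas in PMD-Sen D0 the deeper replicate had the lower level of all 3. Without PMD-Sen D16 and RS the r with depth was 0.59 for miR-542-3p and 0.69 for miR-450a-5p, and 0.23, 0.19 and 0.19 for miR-424-5p, miR-503-5p and miR-450b-5p. The part of depth in the levels of these members was not tested.

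**Figure D5:**
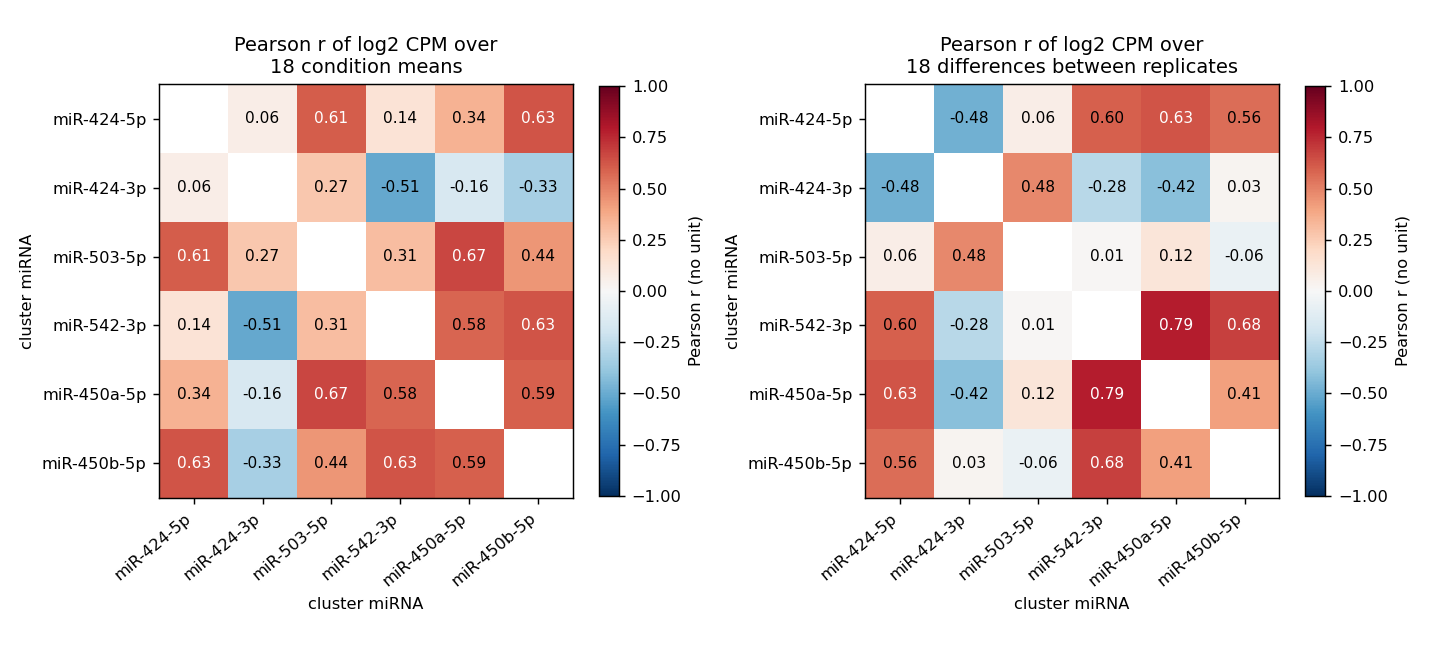
Pearson r of log2 CPM between the 6 tested cluster miRNAs, over 18 condition means (left) and over the 18 differences between replicates (right; colour from blue, -1, to red, 1). miR-424-3p is negative or near 0 with most members on both sides, and miR-542-3p with miR-450a-5p reaches 0.79 between replicates.

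The other products of the same hairpins were mostly too scarce to test. Of 4 on the list, miR-450a-2-3p passed the filter, with a median of 28.0 CPM and 1 to 86 counts, and it was called in none of the comparisons tested. miR-503-3p, the other arm of the most abundant member, had 0 to 8 counts and miR-450a-1-3p 0 to 25.

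The miRNAs that share the seed of miR-424-5p were followed for comparison. Of the 6, miR-15a-5p, miR-15b-5p and miR-16-5p passed the filter, with medians of 48.5, 854 and 1710 CPM. miR-424-5p, at a median of 245 CPM, thus had a lower median level in reads than miR-16-5p and miR-15b-5p. In RS all 3 were called lower than in Ctrl by the thresholds of the study, beside 22.2% of all tested miRNAs called. Their median log2 fold change was -1.90 against 0.12 over all tested miRNAs, where miR-424-5p had 0.12. miR-16-5p, the most abundant of them, had a log2 fold change of -1.34 (SE 0.26) with an adjusted p of 0.000237 in edgeR. In DDR-Sen D16 the median was -1.32, where miR-424-5p had 0.65. By the same thresholds 2 of 3 were called lower there, beside 21.4% of all tested miRNAs called. By an adjusted p below 0.05, 2 of 3 were called lower in DDR-Sen late against early, beside 23.1% of all tested miRNAs. The median was -0.76, and miR-424-5p had -0.40 (SE 0.30) with an adjusted p of 0.369 in edgeR. In PMD-Sen late against early 0 of 3 were called, with a median of -0.30, beside 22.8% of all. For the difference of these changes 1 of 3 was called, miR-16-5p at 0.83 with an adjusted p of 0.0309 in edgeR, beside 12.5% of all. At PMD-Sen D16 the median was -0.52 and miR-424-5p, chosen by its rise there, had 1.04. The difference between miR-424-5p and these miRNAs was not tested.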

How the data were processed

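Small RNA libraries were made by the authors from 100 ng of total RNA per sample with the NEXTFLEX Small RNA-Seq Kit v3 and processed by them with the exceRpt pipeline (adapter trimming, GRCh38, miRBase). The miRBase release is not given in the sources used here. The deposited values are expected counts per mature miRNA, not normalized, of which 1003 of 54288 were not whole and none of those belonged to a member. They were rounded.

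The members and lists were chosen with earlier results of these data known. All 36 libraries were fitted with edgeR 4.0.16 in R 4.3.3 (quasi-likelihood test, TMM, filterByExpr, 18 condition means, 18 residual degrees of freedom), with p-values adjusted by Benjamini-Hochberg over the 360 miRNAs tested. The design had assumed 21 pairs of members, and 15 remained after the filter. Early is D0 and D1, late is D6 and D8. The design's arm tests ran over all 8 days, and their p-values are given without D16, which chose members. The arm tests and correlations used Python 3.11.15 and scipy 1.17.1. DESeq2 1.42.0 was an alternative. The code was checked on simulated data. Named beside the members were the 5 miRNAs most like their mean profile, the seed relatives and the other hairpin products. P-values of the edgeR and DESeq2 tests measure the spread between libraries labelled as biological replicates. Those of the arm tests measure the spread over the days of the time course, each day taken as a mean over replicates. They treat the days as independent and leave out the spread between libraries. Libraries were not paired by replicate number in the fits, and whether the numbers follow 1 culture is not given in the labels. miR-142-3p and miR-450b-3p were not analysed here.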

Additional observations from a re-analysis of the deposited data

Results flagged for a closer look

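The late-minus-early change of miR-542-3p differed between the series. On the log2 scale the PMD-Sen change exceeded the DDR-Sen change by 2.50 (SE 0.70, adjusted p = 0.0182 in edgeR), with a rise of 1.69 in PMD-Sen set against -0.81 in DDR-Sen. The 4 early PMD-Sen libraries held 32 counts of miR-542-3p in all, against 408 in the 4 early DDR-Sen libraries, and had totals of 81670 to 276807 against 311044 to 1010186. With all libraries thinned to 81670 counts the difference was 2.40, with an adjusted p of 0.0676, or 2.45 and called when the filter was also recomputed. The part of depth in this difference was not tested further. miR-542-3p was 1 of the 4 chosen members, and the choice used these time points too.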

How the results depend on the processing

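Of the 312 comparisons of a result with an alternative that kept all libraries, 263 left direction and call as they were, 16 lost and 5 gained a call and 28 reversed; of the 396 that left out 1 library these were 350, 21, 2 and 23. None of the reversed values was of a called result, and the cause of the changes was not tested. The filter held to the 360 miRNAs in the thinned and reduced tables, the separate pairs without miR-424-3p, the correlation with depth and the pooled counts were chosen after seeing the data. In RS against Ctrl, 1 of 6 members was called with DESeq2 size factors, with total counts, at a mean of at least 10 counts and with DESeq2's Wald test, and 0 by adjusted p and after thinning with either filter. In PMD-Sen late against early 1 was called with no filter (of 7 members) and after thinning with either filter, and in DDR-Sen late against early 0 after thinning with either filter and with D4 and D2 added to the stages. For the difference of these changes 0 were called after thinning with the filter held. Between the series over D1 to D8, 2 were called with total counts, at a mean of at least 10 counts, with DESeq2's Wald test and after thinning with the filter recomputed. Over the 15 time points against Ctrl, 2 calls were made with no filter (miR-542-3p in PMD-Sen D0 and miR-542-5p in PMD-Sen D6), 1 with DESeq2's Wald test and 2 by adjusted p.

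Leaving out 1 library gave 0 to 3 calls in RS, 1 to 2 in PMD-Sen late against early, 0 to 0 in DDR-Sen late against early, 0 to 2 for the difference and 0 to 2 over the 15 time points, and an arm difference for MIR424 of -0.35 to -0.10. With the filter recomputed at each step (412 to 428 miRNAs) these counts were 0 to 3, 0 to 2, 0 to 1, 0 to 2 and 0 to 3.

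The reversed log2 fold changes were these. In RS, miR-424-3p was at -0.040 with DESeq2 size factors, -0.10 with total counts, -0.030 at a mean of at least 10 counts, -0.041 with DESeq2's Wald test, -0.25 thinned and -0.14 with the filter recomputed, and miR-424-5p at -0.00060 with total counts and -0.068 thinned. In PMD-Sen late against early, miR-503-5p was at 0.027 with total counts, 0.13 with no filter, 0.00033 with DESeq2's Wald test, 0.17 with D4 and D2 added and 0.019 thinned with the filter recomputed, and miR-424-5p at 0.014 with no filter. In DDR-Sen late against early, miR-450b-5p was at 0.12 thinned and 0.089 with the filter recomputed. In DDR-Sen D16 against early, miR-450a-5p was at 0.035 with DESeq2 size factors, 0.075 with total counts, 0.037 with DESeq2's Wald test and 0.50 thinned with either filter, and miR-503-5p at -0.021 and -0.010 after thinning. Between the series, miR-542-3p, miR-450a-5p and miR-450b-5p were at 0.050, 0.090 and 0.11 with total counts, and miR-450a-5p at 0.0052 with D16 added. With 1 library left out the ranges that crossed 0 were, in RS, -0.14 to 0.10 for miR-424-3p, -1.09 to 0.70 for miR-424-5p and -0.14 to 1.19 for miR-450b-5p. In PMD-Sen late against early they were -0.39 to 0.22 for miR-424-5p, -0.060 to 0.81 for miR-450a-5p, -0.00076 to 1.03 for miR-450b-5p and -0.16 to 0.14 for miR-503-5p. In DDR-Sen they were -0.47 to 0.055 for miR-450b-5p late against early, and at D16 against early -0.37 to 0.0031 for miR-424-3p, -0.99 to 0.59 for miR-450a-5p and -0.74 to 0.32 for miR-542-3p. Between the series they were -0.32 to 0.050 for miR-450a-5p and -0.34 to 0.0062 for miR-450b-5p.

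The correlation of same-numbered deviations ran from -0.46 to 0.37 over 153 pairs of conditions, with a median of 0.04, and exceeded 0.1 in 53. This correlation cannot decide whether libraries with the same replicate number share a culture, which the labels do not give. With the replicate number as a block the counts of members called were the same, and miR-450a-5p in DDR-Sen D16 against early turned to 0.089.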
